A study of Homo sapiens with 4 samples.

Results

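The genes described here are 56 named protein-coding genes of the short arm of human chromosome 3 (3p), which lie between about 3 and 69 Mb of hg19. They were selected on their position and on the Helz-null against WT fold changes of the same 4 libraries, in which transcript levels along this stretch had been found lowered. Those values are given below for the listed genes as a description with no test. All 56 were found in the count table of 27011 genes, and 55 of them passed the filter on low values (a mean FPKM, the count scaled by transcript length and library size, over 2). The remaining gene, SATB1, is described separately. Their name as lowered genes held for most but not all of them, so they are called the listed 3p genes in what follows.

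The study measured RNA in HEK293T cells, a human embryonic kidney line that carries the SV40 large T antigen. It compared 2 WT (wild-type) libraries with 2 Helz-null libraries, which the series design gives as biological replicates. Helz-null cells were made by CRISPR/Cas9 editing of helz, with a short frameshifting deletion in a coding exon, and neither group was treated. Whether the Helz-null cells derive from 1 clone is not given in the sources used here. HELZ is a putative RNA helicase that contacts the CCR4-NOT complex, which removes poly(A) tails from mRNA.

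The short arm of chromosome 3 holds many genes that are known as tumour suppressors of kidney and other tissues. VHL encodes the substrate receptor of a ubiquitin ligase that marks HIF transcription factors for destruction, and PBRM1, SETD2 and BAP1 encode chromatin regulators. The arm also carries genes for TGF-beta and Wnt signalling (TGFBR2 and CTNNB1), for the secretory pathway and for excision repair of DNA. Genes of such different function have in common that they lie on 1 stretch of DNA.

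Library totals ranged from 41745401 to 70464140 counts, and the 11310 tested genes held 98.7 to 98.8% of them. HELZ itself stood at 97.6 and 101.6 CPM (counts scaled to a library of fixed size) in WT against 36.2 and 37.1 CPM in Helz-null. Its log2 fold change was -1.44 ± 0.042 (standard error of the fit, n = 2 and 2), with an adjusted p of 2.00e-29 by the quasi-likelihood test of edgeR. Of the markers checked for the cell line, NEFL, NEFM and VIM were abundant in all 4 libraries and PAX2 and LHX1 were low, at 2.62 to 6.91 CPM. Markers of blood, liver and endothelium (PTPRC, ALB and PECAM1) had 0 to 6 counts a library, and the muscle marker DES had 15 to 21. NEFM differed between the groups, at 235.7 and 225.2 CPM in WT against 429.2 and 425.3 CPM in Helz-null. VIM was at 1050 and 1048 CPM in WT against 958 and 944 CPM in Helz-null, and LHX1 at 2.91 and 2.62 CPM in WT against 6.44 and 4.79 CPM in Helz-null. PAX2 was at 5.08 and 5.25 CPM in WT against 6.91 and 6.35 CPM in Helz-null. The part of these markers in the results below was not tested. In such bulk libraries, fewer cells with a given level and less RNA in every cell cannot be told apart.

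The 55 measured 3p genes had a median log2 fold change (Helz-null over WT, from the edgeR fit) of -0.19, which is 87.7% of the WT level. Their interquartile range ran from -0.28 to -0.14 and the whole range from -0.75 (TGFBR2) to 0.55 (RFTN1). For 51 genes the fold change was below 0 and for 4 it was above. In 49 genes both Helz-null libraries lay under both WT libraries, where 35.2% of all tested genes did so. In 2 genes, RFTN1 and CTDSPL, both Helz-null libraries lay above both WT libraries, where 34.4% of all tested genes did so (69.6% in either direction). The groups overlapped for PTPRG, BHLHE40, KAT2B and TADA3. At a false discovery rate (FDR) under 0.005, 28.4% of all tested genes were called in either direction, 15% as lower and 13.5% as higher. The listed genes held 40 called lower and 1 called higher, and nothing is read from these counts because the same contrast chose the genes.

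Library by library, the medians of the listed genes relative to the WT mean were -0.01 and 0.01 on the log2 scale in WT and -0.19 and -0.21 in Helz-null. The listed genes took 0.637% and 0.644% of all counts in WT, against 0.571% and 0.570% in Helz-null. Neither share of a Helz-null library reached that of a WT library. Between replicates, the log2 ratios of these genes had an SD of 0.072 (WT 2 over WT 1) and 0.060 (Helz-null 2 over Helz-null 1) across the 55 genes. The SD of their Helz-null over WT fold changes was 0.18, so the genes differed among themselves by more than the replicates of either group did. Counts of the 55 measured genes ranged from 343 to 42935 a library, and intervals for counting error alone are for that reason narrow.

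**Figure D1:**
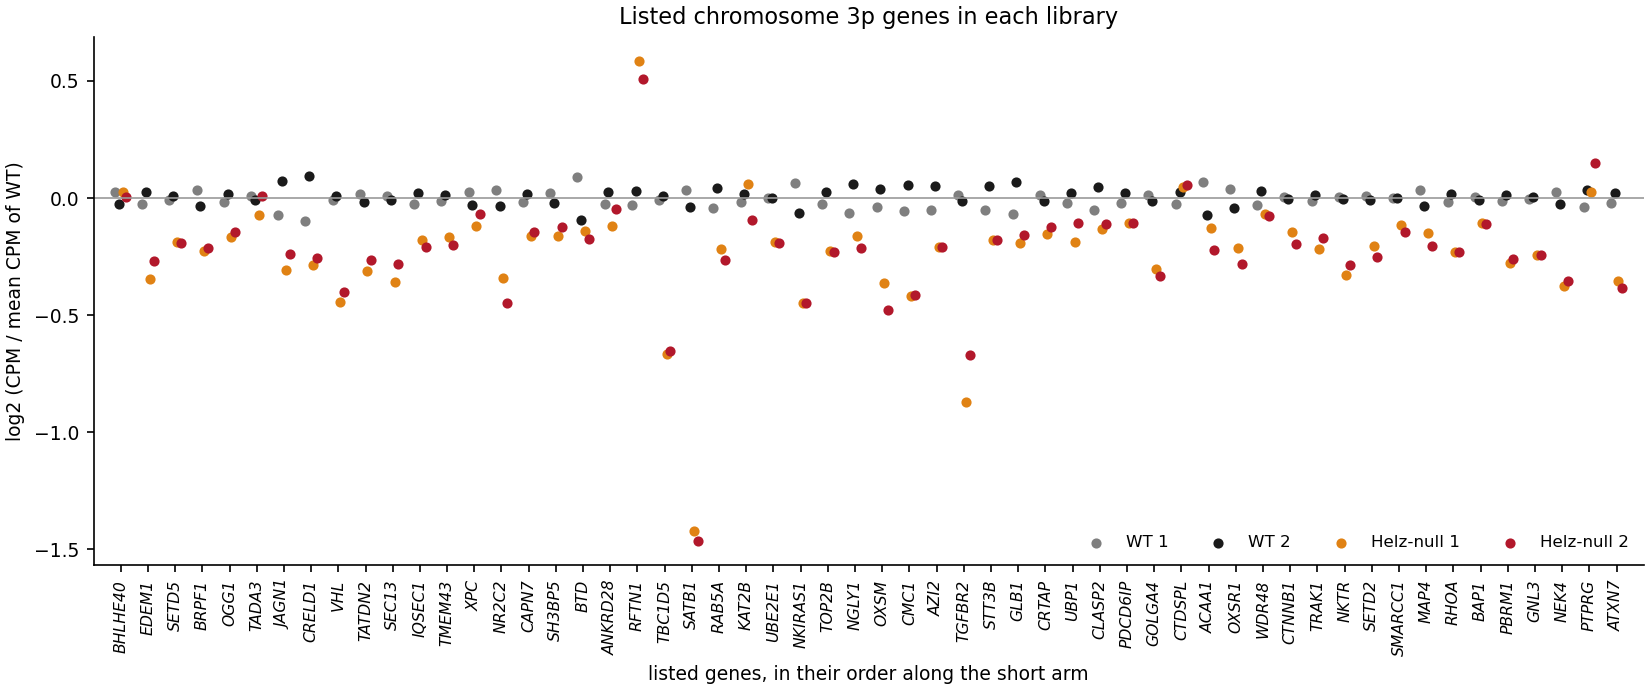
Each of the 56 listed 3p genes (x axis, in their order along the short arm) in each library, as log2 of the CPM over the mean CPM of the WT libraries (y axis). Both Helz-null points lie below both WT points for SATB1 and for 49 of the other 55 genes, SATB1 is the lowest, and RFTN1 stands far above the WT points.

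The order of the genes was similar but not the same in separate pairs of libraries. Across the 55 genes, the log2 ratio of Helz-null 1 to WT 1 correlated with that of Helz-null 2 to WT 2 with a Pearson r of 0.90 and a Spearman rho of 0.81. With the partners exchanged, r was 0.86 and rho 0.72. Without RFTN1, TGFBR2 and TBC1D5, which lie at the ends and were chosen after their values were seen, r was 0.80 and rho 0.78 over 52 genes. These are correlations across genes, which are not replicates. The ratios of the 2 pairs share no library, but all listed genes share the 4 libraries and their scaling.

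**Figure D2:**
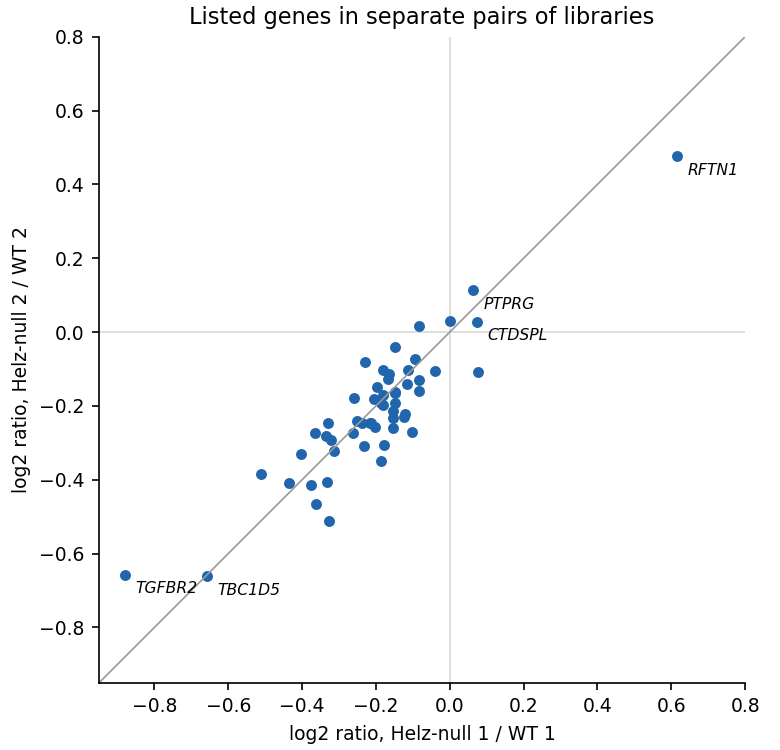
Log2 ratio of Helz-null to WT for each of the 55 listed genes in 1 pair of libraries (x axis, Helz-null 1 over WT 1) against the other pair (y axis, Helz-null 2 over WT 2), with the line of equal values. TGFBR2 and TBC1D5 lie at the low end and RFTN1 at the high end in both pairs.

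The signed log2 fold change was only weakly related to the gene features examined over the 55 genes. The log2 fold change had an r of 0.03 with log2 FPKM, of -0.00323 with start position, of 0.05 with log2 genomic length and of 0.02 with log2 transcript width. Levels per length spanned from an FPKM of 2.99 for TBC1D5 to 288 for RHOA. TBC1D5, TGFBR2 and RFTN1, at the ends of the range of fold changes, had the lowest FPKM of the 55, at 2.99, 3.25 and 3.29. An r on signed values does not measure the size of a shift in either direction, and the relation of that size to level was not tested. Of the 55 genes, 24 overlap another tested gene in the annotation, and whether reads were counted by strand is not given in the sources used here. For these 24 genes, reads of both partners may be mixed. Their median was -0.20, and that of the 31 genes without such an overlap was -0.19.

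Sequence just before the start of transcription is shown for the listed genes at both ends of the range, because these are the genes that parted from the common shift. Each line gives the 30 bases before the start of the canonical GENCODE transcript on GRCh37, 5′ to 3′ on the strand of the gene. Capitals mark the GC box, a promoter element bound by SP1-type factors, searched as GGGCGG on both strands. The first 3 are the genes with the lowest levels relative to WT, and the other 6 are those that were not lower.
TGFBR2 (chr3:30648063-30648092, plus strand): ccgcagcgctgagttgaagttgagtgagtc
TBC1D5 (chr3:17784124-17784153, minus strand): agcgtggtcacgtggccgctggtcaccgcc
SATB1 (chr3:18466832-18466861, minus strand): tcctcctccgccgccgccgccgccgccgcc
RFTN1 (chr3:16555207-16555236, minus strand): gcgcggcggcggcggcgggggcgcgtcggg
CTDSPL (chr3:37903341-37903370, plus strand): cgccctcCCGCCCtcCCGCCCtcgctcgct
BHLHE40 (chr3:5021092-5021121, plus strand): cctcccgcctccCCGCCCGCCCcacttctc
TADA3 (chr3:9834158-9834187, minus strand): gcgtcaactgcaaggggcCCGCCCatagcc
KAT2B (chr3:20081908-20081937, plus strand): gagaccctggcggcggcggcggcgcctgac
PTPRG (chr3:61547215-61547244, plus strand): tttaaagtctctgccaggatccatgctcac

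In a wider window of 300 bases (250 before the start and 50 from it on), 41 of the 56 listed genes held a GC box, which is 73.2%, against 76.8% of 10818 windows of tested genes. The ETS motif CCGGAAG was in 14.3% of the listed windows and 21.0% of all windows. CCAAT was in 32.1% against 36.8%, TATAAA in 3.57% against 4.67%, the CRE TGACGTCA in 3.57% against 3.61%, and the NRF1 motif (GCGCA and GCGC with any 1 base between them) in 19.6% against 13.1%. All were searched on both strands. Of the 6 genes that were not lower, 5 held a GC box and 0 held any of the other motifs. Their windows had a median GC content of 72.7% and 34.5 CpG sites, against 67.7% and 31 for all 56 listed genes and 67% and 28 for all windows. These are descriptions of letters in a window, and 6 windows are too few to compare.

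Among the 13 measured genes of chromatin and transcription, 10 were lower without overlap between the groups, and the median was -0.19. Beside this count and those of the role groups below, 85.2% of all tested genes of the stretch were lower without overlap. Over all tested genes the share was 35.2%. The counts are descriptions, because the same contrast chose the genes. SETD5, a SET-domain protein nearest to that median, had 166.9 and 168.6 CPM in WT against 147.2 and 147.0 CPM in Helz-null. NR2C2, a nuclear receptor, had 77.9 and 74.3 CPM in WT against 60.03 and 55.7 CPM in Helz-null (log2 fold change -0.40). ATXN7, a subunit of the SAGA coactivator, had 32.5 and 33.5 CPM in WT against 25.8 and 25.3 CPM in Helz-null (-0.37). In all 3 genes both Helz-null libraries lay under both WT libraries. The kidney tumour suppressors were likewise lower without overlap, with PBRM1 at 83.1%, SETD2 at 85.3% and BAP1 at 92.8% of WT. The SWI/SNF scaffold subunit SMARCC1 was at 91.5% and topoisomerase TOP2B at 85.3%.

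The other 3 genes of this group did not share the shift. KAT2B, an acetyltransferase of SAGA and ATAC, had 32.9 and 33.7 CPM in WT against 34.7 and 31.2 CPM in Helz-null. TADA3, an adaptor subunit of the same complexes, had 73.8 and 72.8 CPM in WT against 69.7 and 73.7 CPM in Helz-null. BHLHE40, a clock-linked repressor, had 22.7 and 21.9 CPM in WT against 22.7 and 22.4 CPM in Helz-null. Their log2 fold changes were -0.02, -0.03 and 0.01, the groups overlapped for all 3, and the sign of each changed under at least 1 other scaling or set of libraries.

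SATB1, a chromatin organizer, is the listed gene below the filter, with a mean FPKM of 1.41. Its counts were 1163 and 722 in WT and 279 and 456 in Helz-null, which are 18.1 and 17.2 CPM in WT against 6.61 and 6.40 CPM in Helz-null. Helz-null stood at 36.8% of WT. Its low FPKM arose in part from the Helz-null libraries, where it was 0.785 and 0.760, against 2.10 and 2.00 in WT. In a fit on all genes with at least 1 count its log2 fold change was -1.45, beyond that of any of the other 55 listed genes.

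All 9 genes of the endoplasmic reticulum, glycosylation and the secretory pathway were lower without overlap between the groups, with a median of -0.26 and a range of -0.32 to -0.14. CRELD1, at the median, had 15.99 and 18.3 CPM in WT against 14.04 and 14.3 CPM in Helz-null. Its fold change moved from -0.36 without WT replicate 1 to -0.17 without WT replicate 2. GOLGA4, a golgin of the trans-Golgi, had 145.8 and 143.5 CPM in WT against 117.2 and 114.7 CPM in Helz-null (-0.32). SEC13, a subunit of both the COPII coat and the nuclear pore, was at 80.1% of WT, EDEM1, which helps to remove misfolded glycoproteins, at 80.9%, and STT3B, a catalytic subunit of oligosaccharyltransferase, at 88.4%. Most tested genes of the stretch (85.2%) were likewise lower without overlap, so this is not particular to the group.

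The 3 genes grouped under DNA repair were also lower without overlap. OGG1, the glycosylase that removes 8-oxoguanine, had 32.3 and 33.1 CPM in WT against 29.1 and 29.5 CPM in Helz-null (-0.15). XPC, which recognizes helix distortion in nucleotide excision repair, had 51.7 and 49.7 CPM in WT against 46.6 and 48.4 CPM in Helz-null (-0.09). TATDN2, a nuclease of the TatD family, was at 81.9% of WT. The gap for XPC, between 48.4 and 49.7 CPM, was smaller than the spread within either of its groups.

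Among the 15 genes of ubiquitin, signalling and other functions, 13 were lower without overlap and the median was -0.20. TGFBR2, the type II receptor for TGF-beta, had 19.4 and 19.1 CPM in WT against 10.6 and 12.1 CPM in Helz-null. Its log2 fold change of -0.75 ± 0.080 was the lowest of the measured list, at 58.8% of WT. The 2 Helz-null libraries differed for this gene, and without Helz-null replicate 2 the value was -0.87, without replicate 1 it was -0.67. VHL had 177 and 179 CPM in WT against 131 and 135 CPM in Helz-null, which is 74.7% of WT (-0.42). NKIRAS1, a Ras-like inhibitor of NF-kappaB signalling, had 14.9 and 13.6 CPM in WT against 10.5 and 10.5 CPM in Helz-null (-0.45). It overlaps UBE2E1, RPL15 and NR1D2 in the annotation. NEK4, a NIMA-related kinase, had 82.6 and 79.7 CPM in WT against 62.5 and 63.4 CPM in Helz-null (-0.37). In each of these 4 genes the groups were clear of each other.

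Closer to the middle of this group, AZI2, an adaptor of the kinase TBK1, had 57.4 and 61.6 CPM in WT against 51.5 and 51.5 CPM in Helz-null (-0.20). CTNNB1, which encodes beta-catenin, was at 88.9% of WT. WDR48, a cofactor of deubiquitinating enzymes, had 83.6 and 87.0 CPM in WT against 81.3 and 80.8 CPM in Helz-null (-0.07, and -0.04 without WT replicate 2). CTDSPL, a small phosphatase of the RNA polymerase II tail family, had 46.4 and 48.2 CPM in WT against 48.8 and 49.1 CPM in Helz-null (0.05). PTPRG, a receptor tyrosine phosphatase, had 43.7 and 46.0 CPM in WT against 45.7 and 49.8 CPM in Helz-null (0.10). The value of CTDSPL was 0.02 without WT replicate 1, and that of PTPRG ranged from 0.03 without Helz-null replicate 2 to 0.15 without Helz-null replicate 1. Both Helz-null libraries of CTDSPL exceeded its higher WT library by less than the difference between its WT libraries. For PTPRG the groups overlapped.

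Of the 10 genes of endosomes, membrane traffic and the cytoskeleton, 9 were lower without overlap and 1 was higher, which gave this group the widest spread (SD 0.29). TBC1D5, a Rab GTPase-activating protein of the retromer pathway, had 29.5 and 29.8 CPM in WT against 18.7 and 18.9 CPM in Helz-null (-0.66 ± 0.063). It overlaps SATB1 on the same strand in the annotation, so reads of these 2 listed genes may be mixed. RFTN1, which encodes the lipid raft protein raftlin, had 7.85 and 8.18 CPM in WT against 12.0 and 11.4 CPM in Helz-null. It stood at 146% of WT (0.55 ± 0.094), and under every alternative setting and with any 1 library left out it remained the highest of the list, between 0.51 and 0.59. TBC1D5 and RFTN1 thus lay at opposite ends of the list although PLCL2 is the only tested gene that starts between them. RFTN1 overlaps OXNAD1, which was itself lower in Helz-null, at 22.4 and 23.6 CPM in WT against 20.6 and 19.7 CPM in Helz-null.

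The other genes of this group had smaller shifts than TBC1D5. TRAK1, a kinesin adaptor, had 62.3 and 63.4 CPM in WT against 54.1 and 55.9 CPM in Helz-null (-0.19). ANKRD28, a subunit of a protein phosphatase, had 63.1 and 65.2 CPM in WT against 59.1 and 62.0 CPM in Helz-null (-0.08), and its value was -0.05 without Helz-null replicate 1. PDCD6IP, the ESCRT-associated protein ALIX, had 193.3 and 199.5 CPM in WT against 182.3 and 182.4 CPM in Helz-null (-0.11). The GTPase genes RHOA and RAB5A were at 85.2% and 84.5% of WT.

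All 5 genes of metabolism, lysosome and mitochondria were lower without overlap, with a median of -0.18. OXSM, of mitochondrial fatty acid synthesis, had 16.04 and 16.9 CPM in WT against 12.8 and 11.8 CPM in Helz-null (-0.42). CMC1, a factor of cytochrome c oxidase assembly, had 22.8 and 24.6 CPM in WT against 17.7 and 17.8 CPM in Helz-null (-0.41). ACAA1, the peroxisomal thiolase, had 43.7 and 39.6 CPM in WT against 38.1 and 35.8 CPM in Helz-null (-0.18), with -0.11 without WT replicate 1. OXSM overlaps NGLY1 and CMC1 overlaps AZI2, which are also on the list. The biotinidase gene BTD, at 89.7% of WT, depended most on 1 library here, with -0.07 without WT replicate 1 and -0.25 without WT replicate 2.

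The listed genes were set against the rest of the stretch. The 235 other tested genes of chromosome 3 from 3 to 69 Mb, which the same contrast also marked out, had a median of -0.23 (85.1% of WT), 221 of them below 0. Both Helz-null libraries lay under both WT libraries for 198 of these genes and above them for 8. The 307 tested genes of chromosome 3 from 80 Mb on had a median of -0.0038, and the 10363 tested genes of other chromosomes one of 0.0038. Of the 55 listed genes, 34 lay within 0.1 of the median of the whole stretch (-0.22), 9 lay further below it and 12 further above it. In bins of 10 Mb the medians were between -0.25 and -0.16 from the tip to 70 Mb. From 70 to 80 Mb the median was -0.10 over 10 genes, and from 80 to 90 Mb it was 0.03 over 6 genes.

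**Figure D3:**
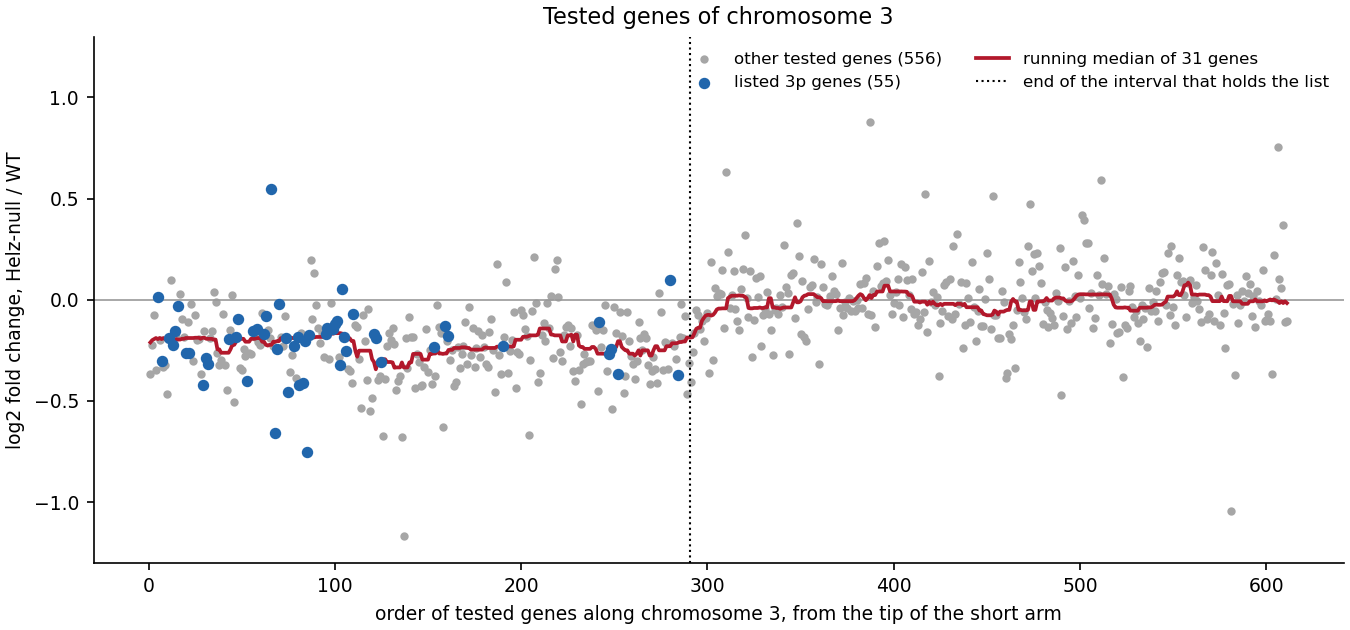
Log2 fold change (Helz-null over WT, y axis) of the 611 tested chromosome 3 genes in their order along the chromosome from the tip of the short arm (x axis), with listed genes in blue, a running median over 31 genes as a line and the end of the stretch at 69 Mb dotted. The running median lies below 0 left of the dotted line and close to 0 to the right of it, after a rise. A window of 31 genes makes any such rise gradual, so its slope is not read.

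At the ends of the list there was no sharp step. BHLHE40 is its first gene and overlapped between the groups, while SETMAR and SUMF1, the next tested genes towards the tip, had -0.35 and -0.07. ATXN7 is the last gene at -0.37. Past it came PSMD6 at -0.19, MAGI1 at -0.02, SLC25A26 at -0.19, LRIG1 at -0.08, KBTBD8 at -0.47 and SUCLG2 at -0.31. From 69 to 80 Mb, 12 of 14 tested genes were below 0 and 6 were called lower. EOGT, TMF1 and UBA3 had -0.41, -0.26 and -0.17, RYBP had -0.21, PPP4R2 had -0.36 and FAM86DP had -0.30. The other 6 below 0 had smaller shifts that did not pass, such as ARL6IP5 at -0.05, GXYLT2 at -0.06, FOXP1 at -0.07 and EIF4E3 at -0.14, and PDZRN3 had 0.19. ROBO1, GBE1 and CHMP2B, further along, had 0.06, 0.02 and 0.03. Some lowered values thus lay past the stretch from which the list was drawn, mixed with values near 0.

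The genes beside those that were not lower resembled the rest of the stretch. For RFTN1, CTDSPL, PTPRG, BHLHE40, KAT2B and TADA3, the nearest tested gene on each side was lower without overlap in 11 of 12 cases, where 85.2% of all tested genes of the stretch and 35.2% of all tested genes were. RFTN1 lies between OXNAD1 at -0.19 and PLCL2 at -0.23. CTDSPL lies between GOLGA4 at -0.32 and ACAA1 at -0.18, and KAT2B lies between RAB5A at -0.24 and SGO1 at -0.18. PTPRG lies between KCTD6 at -0.34 and PTPRG-AS1 at -0.21, and SETMAR beside BHLHE40 had -0.35. KCTD6 is not close, with its start at -3.07 Mb from that of PTPRG. PTPRG-AS1 overlaps PTPRG and OXNAD1 overlaps RFTN1 in the annotation, so reads of these pairs may be mixed. The exception was ARPC4 beside TADA3, with 101.9 and 103.0 CPM in WT, 106.1 and 102.9 in Helz-null and a log2 fold change of 0.03. ARPC4 and TADA3 overlap in the annotation, so their reads may not be fully separate. CAMK1 on the other side of TADA3 had -0.18.

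**Figure D4:**
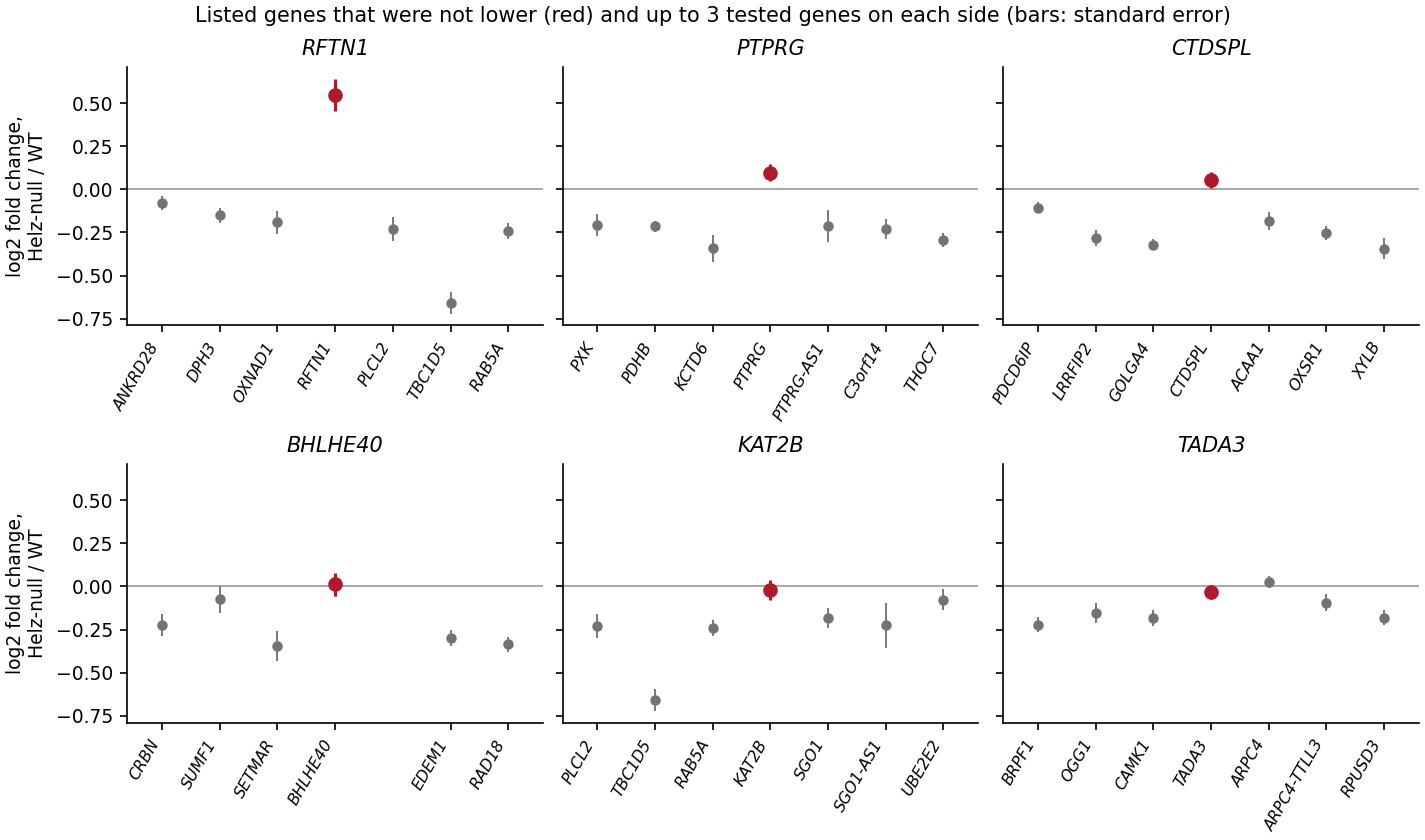
Log2 fold change (Helz-null over WT, bars show the standard error) of the 6 listed genes that were not lower and of up to 3 tested genes on each side of each, in chromosomal order. The 6 genes lie near or above 0 and the genes directly beside them lie below 0, apart from ARPC4 beside TADA3.

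Genes of the stretch that are not on the list reached further at the low end than at the high end. The following were chosen after their values were seen. ZNF35 had 14.7 and 15.0 CPM in WT against 6.04 and 7.01 CPM in Helz-null (-1.17), and its neighbour ZNF197 had -0.68. ZBTB47 had -0.67 and the neural proteoglycan gene CSPG5 had -0.63. The highest was the amino acid transporter SLC38A3 at 0.21, so none of the 235 came near RFTN1. The 5 genes of cytosolic ribosomal proteins in the stretch, RPSA, RPL14, RPL15, RPL32 and RPL29, had a median of -0.36 and lay between -0.53 and -0.31. RPSA had 2140 and 2116 CPM in WT against 1456 and 1484 CPM in Helz-null. Such genes have many processed copies in the genome that can take some of their reads, so their values are uncertain.

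Paralogues of the listed genes that lie elsewhere in the genome were not used to make the list and can be tested. Of 42 paralogues, 36 were tested, with a median log2 fold change of 0.06, and at an FDR under 0.005 (quasi-likelihood test of edgeR, adjusted over all 11310 genes) 5 rose, 2 fell and 29 did not pass. In all, 7 of 36 passed, where 28.4% of all tested genes did. Without Helz-null replicate 1 the number was 4, and with scaling by library size only it was 11, of which 9 were higher. CTDSP2, close kin of CTDSPL, rose from 95.8 and 97.1 CPM in WT to 113.8 and 112.4 CPM in Helz-null (0.23 ± 0.035, adjusted p = 5.65e-07). CRELD2, kin of CRELD1 and a protein of the endoplasmic reticulum, rose from 52.7 and 53.1 CPM to 61.3 and 63.6 CPM (0.24 ± 0.044, adjusted p = 1.38e-05). TOP2A, the topoisomerase of dividing cells and kin of TOP2B, rose from 349 and 371 CPM to 396 and 394 CPM (0.14 ± 0.030, adjusted p = 2.06e-04). In each of the 3 both Helz-null libraries lay above both WT libraries.

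EDEM3, kin of EDEM1, rose from 80.9 and 82.5 CPM to 90.5 and 91.2 CPM (0.15 ± 0.037, adjusted p = 6.64e-04). MAPT, the gene of tau and kin of MAP4, rose from 13.4 and 12.4 CPM to 16.4 and 16.3 CPM (0.34 ± 0.079, adjusted p = 5.51e-04). ANKRD52, kin of ANKRD28, fell from 183.3 and 184.3 CPM to 157.9 and 152.9 CPM (-0.24 ± 0.031, adjusted p = 1.84e-08). ANKRD28 and ANKRD52 were thus both lower in Helz-null. The calls of EDEM3, TOP2A and MAPT were lost when 1 library was left out (EDEM3 without WT replicate 1 or either Helz-null replicate, TOP2A without WT replicate 1 or Helz-null replicate 1, and MAPT without WT replicate 2 or Helz-null replicate 2).

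The kin of RAB5A and RHOA were among the genes that did not pass. RAB5A, the early endosome GTPase on the list, had 58.9 and 62.4 CPM in WT against 52.1 and 50.5 CPM in Helz-null. RAB5B had 102.0 and 96.7 CPM in WT against 103.5 and 104.2 CPM in Helz-null (0.06, adjusted p = 0.164 by edgeR). RAB5C had 204.2 and 200.7 CPM in WT against 217.1 and 216.6 CPM in Helz-null (0.10, adjusted p = 0.00678 by edgeR). Per length, RAB5C (FPKM 103) was the most abundant of the 3, ahead of RAB5A (22.1) and RAB5B (18.7). RHOA, of the actin cytoskeleton, had 668.5 and 683.5 CPM in WT against 576 and 577 CPM in Helz-null. The log2 fold change of RHOB was -0.06 (adjusted p = 0.126 by edgeR) and that of RHOC was 0.09 (adjusted p = 0.0880 by edgeR). At an FPKM of 288, RHOA stood well above RHOB (61.0) and RHOC (40.1).

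**Figure D5:**
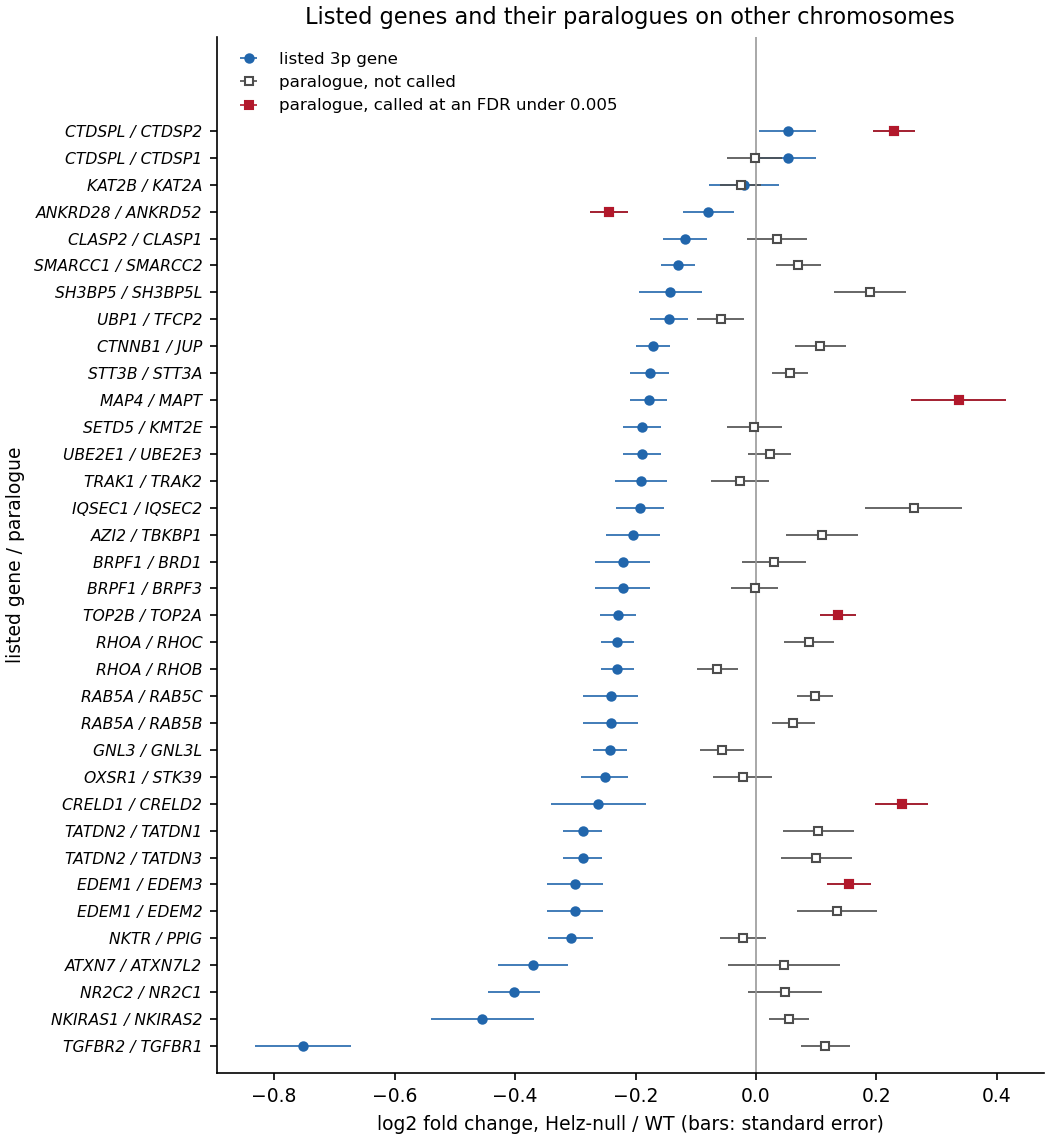
Log2 fold change (Helz-null over WT, bars show the standard error) of listed 3p genes and of their paralogues on other chromosomes, for 35 pairs ordered by the listed gene. Most listed genes lie below 0 and the paralogues scatter around 0, with 6 of the called paralogues drawn as filled squares.

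Genes of the complexes and pathways that the listed genes belong to, but that lie outside the stretch, were likewise not used to make the list. Of 182 such genes in 9 lists, 165 were tested, with a median log2 fold change of 0.01. At an FDR under 0.005, 23 fell and 26 rose, 49 of 165 against 28.4% of all tested genes. Without Helz-null replicate 2 the number was 32, and with scaling by library size only 17 fell and 34 rose. This share is near that of all tested genes, so the counts below are descriptions and the lists were not compared with each other. For 6 of the 49 called genes the 10 nearest tested genes on their own chromosome had a median of at least 0.15 in size. These medians are given below where such a gene is named, and their part in the result was not tested.

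Among 22 tested SWI/SNF subunits outside 3p, partners of SMARCC1 and PBRM1, 4 fell and 5 rose. SMARCD3 rose from 26.1 and 27.1 CPM to 33.4 and 38.8 CPM (0.45 ± 0.061, adjusted p = 5.15e-08), and its 10 nearest genes had a median of 0.21. Its fold change ranged from 0.33 without Helz-null replicate 2 to 0.55 without Helz-null replicate 1. ARID1B, a DNA-binding subunit, rose from 76.5 and 77.1 CPM to 90.1 and 87.6 CPM (0.21, adjusted p = 1.17e-05). BCL7A fell from 76.3 and 71.7 CPM to 64.7 and 63.9 CPM (-0.21, adjusted p = 6.39e-05). The SWI/SNF number ranged from 4 to 10 with 1 library left out, the 4 without WT replicate 1 or without Helz-null replicate 2, and it was 5 without Helz-null replicate 1.

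Of 19 SAGA and ATAC subunits, partners of TADA3, KAT2B and ATXN7, 2 fell and 2 rose. TAF5L of SAGA fell from 109.3 and 108.3 CPM to 74.4 and 74.96 CPM (-0.54 ± 0.036, adjusted p = 1.30e-16). It lies on chromosome 1 among genes whose median was -0.46. ZZZ3 of ATAC fell from 127.9 and 125.8 CPM to 86.8 and 88.1 CPM (-0.54 ± 0.035, adjusted p = 4.92e-17), among genes with a median of -0.11. SUPT20H rose from 50.2 and 52.6 CPM to 59.7 and 60.2 CPM (0.22, adjusted p = 6.07e-05). Of 13 subunits of the BRPF1 and BAP1 complexes, 1 fell and 2 rose. KDM1B, a histone demethylase, rose from 45.5 and 44.2 CPM to 57.1 and 55.1 CPM (0.32, adjusted p = 2.33e-07). FOXK1 fell from 83.6 and 86.1 CPM to 74.6 and 69.1 CPM (-0.24, adjusted p = 2.51e-06) and HCFC1 rose from 326 and 325 CPM to 361 and 348 CPM (0.12, adjusted p = 5.73e-04), a call lost without Helz-null replicate 1. The number for these complexes rose to 5 without WT replicate 1 and was 2 without Helz-null replicate 1.

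Of 25 tested genes of the VHL ligase and the HIF pathway, 4 fell and 5 rose. The hormone gene ADM fell from 13.1 and 13.3 CPM to 7.74 and 8.58 CPM (-0.68 ± 0.091, adjusted p = 4.28e-08), and VEGFA and ENO1 also fell. The mitophagy receptor gene BNIP3L rose from 33.2 and 31.5 CPM to 42.7 and 42.8 CPM (0.40, adjusted p = 2.95e-08), and EPAS1, PDK1, NDRG1 and KDM3A also rose. EGLN1, the prolyl hydroxylase that marks HIF for VHL, fell from 110.3 and 111.5 CPM to 87.9 and 85.8 CPM (-0.35, adjusted p = 3.23e-11). Its 10 nearest genes on chromosome 1 had a median of -0.51. The number was 5 without Helz-null replicate 1.

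Of 16 tested partners and targets of beta-catenin, 1 fell and 3 rose. The coactivator gene BCL9L rose from 19.1 and 19.2 CPM to 28.6 and 28.7 CPM (0.58 ± 0.064, adjusted p = 2.61e-10). TCF7, a partner on DNA, rose from 22.8 and 22.5 CPM to 30.7 and 28.7 CPM (0.38, adjusted p = 2.07e-06). The target and feedback gene AXIN2 rose from 16.7 and 15.1 CPM to 20.1 and 20.3 CPM (0.34, adjusted p = 2.15e-04). CCND1, another known target, fell (-0.33, adjusted p = 1.82e-08). Of 12 tested TGF-beta pathway genes, SKIL, a target and repressor, fell from 38.0 and 38.5 CPM to 30.8 and 28.2 CPM (-0.38, adjusted p = 2.97e-07). SMAD3, which carries the receptor signal to the nucleus, fell from 41.1 and 40.4 CPM to 33.4 and 35.5 CPM (-0.24, adjusted p = 2.33e-04) among genes with a median of -0.26. The other 10 genes of that pathway did not pass, and the SMAD3 call was lost without Helz-null replicate 1.

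Among 11 oligosaccharyltransferase subunits, partners of STT3B, 1 fell and 3 rose. TMEM258 rose from 51.5 and 56.2 CPM to 58.8 and 61.6 CPM (0.17, adjusted p = 2.74e-03). DAD1 rose from 109.9 and 108.6 CPM to 120.5 and 121.2 CPM (0.15, adjusted p = 4.82e-04). OSTC fell from 129.6 and 132.3 CPM to 124.4 and 117.3 CPM (-0.12, adjusted p = 4.97e-03). Without Helz-null replicate 2 the value of OSTC was -0.07, and without WT replicate 1 that of TMEM258 was 0.10. The calls in this list were fragile, with 0 left by edgeR without Helz-null replicate 2 (3 had an unadjusted p under 0.05 there), 2 called by DESeq2 on all libraries and 2 left by edgeR without WT replicate 1 or without Helz-null replicate 1. The 20 tested genes of the COPII coat and of the Y complex of the nuclear pore, partners of SEC13, held 1 that fell and 4 that rose. NUP133 fell from 210.5 and 219.4 CPM to 169.7 and 171.0 CPM (-0.33, adjusted p = 3.42e-12), on chromosome 1 among genes with a median of -0.51. NUP98 rose from 158.1 and 163.2 CPM to 187.7 and 180.7 CPM (0.20, adjusted p = 2.03e-06). SEC31A of the outer COPII coat rose from 152.0 and 157.4 CPM to 176.8 and 176.5 CPM (0.19, adjusted p = 2.63e-06).

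Excision repair of DNA, the field of XPC and OGG1, had 7 called genes that fell and 2 that rose among 27 tested, and a median of -0.0088. The glycosylase gene NEIL3 fell from 23.1 and 23.8 CPM to 15.6 and 16.3 CPM (-0.55 ± 0.070, adjusted p = 1.33e-08). Its 10 nearest genes on chromosome 4 had a median of -0.50. MUTYH, which removes adenine opposite 8-oxoguanine, fell from 12.3 and 10.7 CPM to 8.97 and 9.02 CPM (-0.36 ± 0.094, adjusted p = 1.63e-03). Its call was lost without WT replicate 1 and without either Helz-null replicate. GTF2H3, a subunit of TFIIH, fell from 103.9 and 105.2 CPM to 86.1 and 85.9 CPM (-0.28, adjusted p = 1.18e-08). The number for excision repair was 3 without Helz-null replicate 2, 6 without WT replicate 1 and 6 without Helz-null replicate 1.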

How the data were processed

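RNA-Seq libraries of HEK293T cells (2 WT, 2 Helz-null) were used. The deposited read counts per gene are not normalized. For these counts, the authors filtered out rRNA reads (Bowtie2), aligned the paired reads against hg19 (TopHat2) and assigned them to genes (QuasR). Versions, gene annotation, strand setting and the counting of mates are not given in the sources used here. The deposited comparison of the authors (log2 fold changes, p-values and FDR from edgeR) was not used.

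Genes with a mean FPKM over 2 (counts and gene widths of the deposited table) were tested with edgeR 4.0.16 in R 4.3.3 (TMM scaling, quasi-likelihood fit over all 4 libraries, FDR under 0.005 by Benjamini-Hochberg). CPM values use the TMM-scaled totals, so a fold change is relative to the bulk of genes. The biological coefficient of variation was 2.61%. Taken as single counts, replicates differed by more than sampling noise (chi-square per degree of freedom 4.11 in WT and 2.96 in Helz-null). Counting both mates of a pair would by itself raise these values, and whether it was done is not given. A floor of 3 counts was 0.043 to 0.072 CPM, which covers counting error only. The script was tested on simulated data.

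Positions came from GENCODE on GRCh37, the build of hg19. Of the tested genes, 10442 were found by their symbol and 532 through an older one, and 336 were not found. Start windows were read from that genome. Protein sequences were not used here.

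The listed genes, their grouping by role, the paralogues and the pathway lists were chosen with earlier results of these data known. Values in every library are given for the 10 lowest and 10 highest listed genes and the gene nearest the median of each role group. Of paralogues the called genes are named, and of each pathway list up to 3 called genes with the largest change. Other names were chosen after their values were seen, and some genes are not reported here. Alternatives were other scalings and filters, halved counts, DESeq2 1.42.0, a replicate block and leaving out each library.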

Additional observations from a re-analysis of the deposited data

How the results depend on the processing

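The direction of every summary of the listed 3p genes was kept under all alternatives that were run, and none reversed. Scaling by library size only moved the median of the listed genes from -0.19 to -0.16 and the number of called paralogues from 7 to 11. It also changed the calls over all genes from 1695 lower and 1522 higher to 1312 lower and 2060 higher. The other whole-table alternatives (DESeq2, 3 other filters and counts divided by 2) left the median of the listed genes at -0.19. With 1 library left out, that median ranged from -0.21 to -0.18 and the listed genes called lower from 33 to 40. Called paralogues ranged from 4 to 7 and called pathway genes from 32 to 50. Over all genes, 1186 to 1636 were called lower and 1000 to 1508 higher, the 1000 without Helz-null replicate 2. DESeq2 called 1279 genes lower and 1087 higher. It called 5 SWI/SNF subunits where edgeR called 9, 3 genes of the COPII coat and Y complex in place of 5, and 2 oligosaccharyltransferase subunits in place of 4 (1 with filterByExpr). Paralogues called lower were 4 in place of 2 with filterByExpr and over all genes with at least 1 count. The replicate numbers are shared by the groups, but deviations of same-numbered libraries had a correlation of 0.020, so the numbers are treated as names only. A fit with the replicate number as a block called 1835 genes lower and 1675 higher and left the median of the listed genes at -0.19. Near 0, signs were not stable: TADA3 and KAT2B were above 0 with scaling by library size only, BHLHE40 was below 0 without WT replicate 2, TADA3 above 0 without Helz-null replicate 1 and KAT2B above 0 without Helz-null replicate 2. With 2 libraries a group, the standard errors given beside the values limit which small shifts can be told from 0.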
